A study of Homo sapiens with 3 samples.

Results

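The genes described here encode 8 regulators of the Hippo pathway that sit at cell junctions and bind YAP or the LATS kinases. They are the angiomotins AMOT, AMOTL1 and AMOTL2, the WWC proteins WWC1, WWC2 and WWC3, the phosphatase PTPN14 and the FERM-domain protein FRMD6. They were chosen by name, and each of the 8 names matched 1 of the 50868 genes in the deposited table. RNA was sequenced from 3 cultures of the HGC-27 cell line, which was derived from a human gastric carcinoma of undifferentiated type. All 3 were at passage 6 and were collected 48 h after siRNA transfection, 1 with a control siRNA, 1 with an siRNA against IRF3 and 1 with an siRNA against YAP. Each condition had 1 library from 1 culture, so no difference here could be checked against replicates and none carries a p-value. The sources used here do not give the siRNA sequences.

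The Hippo pathway is a kinase cascade that restrains the transcriptional coactivators YAP and TAZ. The LATS kinases phosphorylate YAP, which then stays out of the nucleus, and unrestrained YAP binds TEAD factors on DNA. Angiomotins hold YAP at tight junctions and on actin filaments, and PTPN14 binds YAP and keeps it in the cytoplasm. WWC1, also called KIBRA, and its relatives WWC2 and WWC3 are scaffolds that promote LATS activation. FRMD6, also called Willin, is related to the Drosophila Hippo regulator Expanded. Several of these regulators, AMOTL2 and PTPN14 among them, are also known as transcriptional targets of YAP in other cells, so the family takes part in a feedback loop.

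Angiomotins and PTPN14 contact YAP through PPxY motifs, short peptides that fit the WW domains of YAP. The codons of such motifs were searched in frame, as a pair of proline codons (CCN), any codon and a tyrosine codon (TAT or TAC), in the GENCODE release 29 coding transcripts that have both a start and a stop codon. The sequences below show this contact point, with the 12 bases of the motif in capitals and 9 bases on each side, 5′ to 3′ on the coding strand.
AMOT codons 239 to 242: cgaggccccCCACCAGAATATcccttcaag
AMOT codons 284 to 287: tatcagcatCCCCCTGAGTATggagcagcc
AMOTL1 codons 310 to 313: cggggtcctCCACCTGAGTACcccttcaag
AMOTL1 codons 367 to 370: taccagccaCCCCCTGAGTATggggtaacg
AMOTL2 codons 268 to 271: cgaggacccCCACCTCAGTACcctcatgtt
PTPN14 codons 567 to 570: ttcaggccaCCGCCCCCCTACccacggcca
PTPN14 codons 749 to 752: aacaagcccCCGCCTGAGTACcccggtcca

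AMOT, AMOTL1 and PTPN14 each had 2 such motifs in their longest coding transcript, AMOTL2 had 1, and no motif was found in WWC1, WWC2, WWC3 or FRMD6. In hg38 the first AMOT motif lies at chrX:112822401-112822412 on the minus strand and the first AMOTL1 motif at chr11:94800118-94800129 on the plus strand. The AMOTL2 motif lies at chr3:134370795-134370806 and the first PTPN14 motif at chr1:214384145-214384156, both on the minus strand and both within a coding exon. Over the 30 bases shown, the first motif of AMOT shared 24 with that of AMOTL1 and 18 with that of AMOTL2. The WWC proteins carry the other side of this contact, WW domains that bind PPxY motifs in partners such as LATS, angiomotins and PTPN14. Of 5 complete coding transcripts of AMOT, 4 held the motifs and 1, of 675 codons, did not, and of 2 for PTPN14 only the longer, of 1187 codons, held them. The deposited values are per gene, so forms with and without the motif are counted together.

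Library totals ranged from 13949401 to 14941556 counts. YAP1 stood at 5.89 FPKM in the control, 2.23 with YAP siRNA and 3.58 with IRF3 siRNA. Its count ratio to control, after scaling by library totals, was 0.380 with YAP siRNA (95% counting interval 0.334 to 0.431) and 0.608 with IRF3 siRNA (0.546 to 0.677). IRF3 had a count ratio of 0.818 with IRF3 siRNA (0.732 to 0.915) and of 1.09 with YAP siRNA (0.980 to 1.21). With counts of genes that share exon sequence summed, the IRF3 ratio in the IRF3 siRNA library was 0.983, so IRF3 checks that label only weakly. Of the cell type markers, the mesenchymal marker VIM stood at 451 to 511 FPKM and the fibroblast marker COL1A1 at 222 to 266 FPKM. The mesenchymal markers CDH2 (0.0560 to 0.130 FPKM) and ZEB1 (0.144 to 0.491 FPKM) were low, and the epithelial markers CDH1, EPCAM, KRT8, KRT18 and KRT19 were all under 0.5 FPKM in every library. CLDN7 was the one epithelial marker with a mean of at least 1 FPKM, and the epithelial list summed to 2.83 FPKM in the control library, 3.57 after YAP siRNA and 3.08 after IRF3 siRNA. Its part in the ratios was not tested. Of the gastric lineage markers KLF5, GATA6 and GATA4 were measured and TFF1 was listed at 0 in all. Endothelial markers summed to 0.196 to 0.225 FPKM and the leukocyte marker PTPRC had 1 to 3 counts.

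A gene was measured when its mean over the libraries was at least 1 FPKM, fragments scaled to gene length and library size, which 11103 genes reached. Of the 8 regulators 7 passed. AMOTL2 did not, with a mean of 0.896 FPKM, and its values are given without a call. In the control AMOT had the highest level, 13.4 FPKM, followed by PTPN14 (4.97), AMOTL1 (4.40), WWC3 (4.31), WWC1 (2.48), WWC2 (2.42), FRMD6 (1.93) and AMOTL2 (1.03). The length behind these values is the authors'. It is 1.05 times the merged exon length of GENCODE release 29 for PTPN14 and 1.07 times for WWC3. For WWC2 it is 2.25 times that length, for FRMD6 2.39 times and for AMOTL2 2.44 times. With merged exon length the control order was AMOT, AMOTL1, WWC2, PTPN14, WWC3, FRMD6, WWC1 and AMOTL2. AMOT was highest and AMOTL2 lowest on both scales, while the middle of the order depended on the length used. The length used cancels out of a gene's ratio between libraries.

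**Figure D1:**
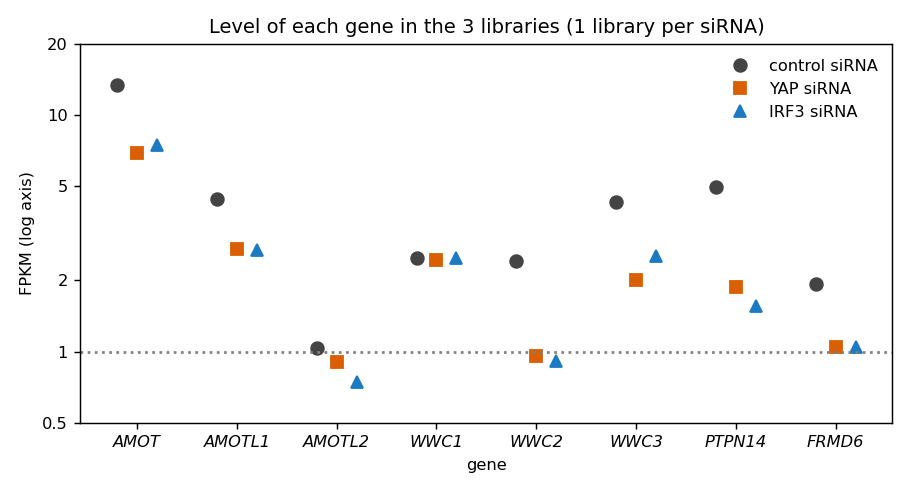
Level of each of the 8 genes in FPKM (log axis) in the control siRNA, YAP siRNA and IRF3 siRNA libraries, 1 point per library, with a dotted line at 1 FPKM. AMOT ran from 13.4 FPKM in the control to 6.90 with YAP siRNA, while the 3 points of WWC1 lie between 2.45 and 2.48 FPKM.

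Compared with the control, PTPN14, WWC2 and WWC3 fell at least 2-fold with YAP siRNA, and PTPN14 and WWC2 fell at least 2-fold with IRF3 siRNA. AMOT, AMOTL1 and FRMD6 were lower than control in both knockdown libraries without reaching 2-fold, and WWC1 was level in all 3. No regulator passed 2-fold in the higher direction. In counts, 3 of the 7 measured regulators were called lower with YAP siRNA, beside 2.75% of all measured genes, and none higher, beside 1.05%. With IRF3 siRNA 2 of 7 were called lower, beside 3.08% of all genes, and none higher, beside 1.0%. WWC2, called in both, was under 1 FPKM in both knockdown libraries and passed the level filter only through the control. A filter on the mean favours lower calls for such genes. The median log2 count ratio of the 7 was -0.96 with YAP siRNA and -0.85 with IRF3 siRNA, beside -0.03 in both comparisons over all measured genes. Both comparisons use the same control library, so their values are given side by side and are not independent of each other. Fewer cells that express a gene and less RNA per cell cannot be told apart in such libraries.

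PTPN14 (ENSG00000152104, chromosome 1, 214348696 to 214552449, hg38, minus strand), the tyrosine phosphatase that binds YAP, had the lowest ratio to control of the 8 in both knockdown libraries, although with YAP siRNA it was within counting error of WWC2. Relative to WWC2 it stood at 0.952 of its control proportion with YAP siRNA (0.803 to 1.13) and 0.833 with IRF3 siRNA (0.700 to 0.991). It had 1362 counts in the control, 529 with YAP siRNA and 457 with IRF3 siRNA, or 4.97, 1.87 and 1.56 FPKM. Both knockdown libraries lay well below the control, and IRF3 siRNA was the lowest. The count ratio to control was 0.377 with YAP siRNA (0.340 to 0.417) and 0.313 with IRF3 siRNA (0.281 to 0.349). Ranked over all 11103 genes, PTPN14 had the 78th lowest ratio with YAP siRNA and the 38th lowest with IRF3 siRNA. The ratio between the knockdown libraries, IRF3 siRNA against YAP siRNA, was 0.832 (0.732 to 0.944), a difference beyond counting error but far short of 2-fold.

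WWC2 (ENSG00000151718, chromosome 4, 183099293 to 183320777, plus strand), a scaffold of the LATS kinases, came next. It had 757 counts in the control, 309 with YAP siRNA and 305 with IRF3 siRNA, or 2.42, 0.959 and 0.911 FPKM. The knockdown libraries lay together, below the control. Its count ratios were 0.396 (0.346 to 0.452) and 0.376 (0.328 to 0.430), and the direct ratio of IRF3 siRNA to YAP siRNA was 0.950 (0.809 to 1.12). WWC2 shares 2581 exon bases with CLDN22 on the opposite strand, which was listed with 0 counts in every library. PTPN14 shares 1213 exon bases with KRT18P12 on the opposite strand and 151 with RP11-176D17.3, and AMOTL1 shares 496 with RP11-856F16.2, all likewise listed with 0 counts. AMOTL2 shares 187 with RPL39P5, which had at most 1 count in a library. The sources used here do not say how reads in shared bases were assigned.

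WWC3 (ENSG00000047644, chromosome X, 10015562 to 10144478, plus strand), the third member of that family, had 459 counts in the control, 220 with YAP siRNA and 290 with IRF3 siRNA. These are 4.31, 2.0 and 2.54 FPKM. The YAP siRNA library was the lowest and the IRF3 siRNA library lay between it and the control. Its count ratio was 0.465 with YAP siRNA (0.394 to 0.547), an interval that includes 2-fold, and 0.590 with IRF3 siRNA (0.507 to 0.685), which did not pass. In the direct comparison WWC3 stood 1.27 times higher with IRF3 siRNA than with YAP siRNA (1.06 to 1.52). That is the opposite direction to PTPN14.

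WWC1 (ENSG00000113645, chromosome 5, 168291651 to 168472303, plus strand) had 552, 562 and 592 counts in the control, YAP siRNA and IRF3 siRNA libraries, or 2.48, 2.45 and 2.48 FPKM. All 3 libraries lay within counting error of each other. The count ratios were 0.987 (0.876 to 1.11) and 1.0 (0.890 to 1.13). Within 1 pair of libraries, genes can be compared with each other without any scaling. Relative to WWC1, WWC2 stood at 0.401 of its control proportion with YAP siRNA (0.335 to 0.480) and 0.376 with IRF3 siRNA (0.314 to 0.450). For WWC3 relative to WWC1 these values were 0.471 (0.384 to 0.577) and 0.589 (0.486 to 0.714). The share of WWC1 in the summed FPKM of the 3 WWC genes was 26.9% in the control, 45.3% with YAP siRNA and 41.9% with IRF3 siRNA. With merged exon lengths the shares were 28.1%, 47.4% and 45.2%. With merged exon lengths WWC1 had the smallest of the 3 shares in the control and the largest in both knockdown libraries, while by FPKM it had the largest with YAP siRNA alone.

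AMOT (ENSG00000126016, chromosome X, 112774503 to 112840815, minus strand), the founding angiomotin, had 2011 counts in the control, 1069 with YAP siRNA and 1198 with IRF3 siRNA, or 13.4, 6.90 and 7.45 FPKM. The knockdown libraries lay close to each other and near 0.5 of the control level. The count ratio was 0.515 with YAP siRNA (0.478 to 0.555), just short of 2-fold with an interval that includes it, and 0.556 with IRF3 siRNA (0.517 to 0.598). AMOT was the most highly counted of the 8.

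AMOTL1 (ENSG00000166025, chromosome 11, 94706431 to 94876753, plus strand), which shares both PPxY sites with AMOT, had 1031, 654 and 678 counts in the control, YAP siRNA and IRF3 siRNA libraries, or 4.40, 2.71 and 2.70 FPKM. Its ratios were 0.615 (0.557 to 0.679) and 0.614 (0.556 to 0.677), and the direct ratio was 0.998 (0.895 to 1.11). The knockdown libraries differed from each other by less than counting error. AMOTL2 (ENSG00000114019, chromosome 3, 134355874 to 134375479, minus strand), the angiomotin best known as a YAP target gene, had only 211, 191 and 163 counts. Its ratios were 0.878 with YAP siRNA (0.718 to 1.07), which includes no change, and 0.721 with IRF3 siRNA (0.584 to 0.889). Relative to AMOTL2, AMOT stood at 0.587 of its control proportion with YAP siRNA (0.474 to 0.728) and 0.771 with IRF3 siRNA (0.618 to 0.964). AMOT made up 71.1% of the summed angiomotin FPKM in the control, 65.6% with YAP siRNA and 68.4% with IRF3 siRNA, and the sum itself was 18.8, 10.5 and 10.9 FPKM. The angiomotin pool was therefore lower in both knockdown libraries with AMOT its largest part in each.

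FRMD6 (ENSG00000139926, chromosome 14, 51489100 to 51730727, plus strand) had 604 counts in the control, 338 with YAP siRNA and 351 with IRF3 siRNA, or 1.93, 1.05 and 1.05 FPKM. Its ratios were 0.543 (0.474 to 0.621) and 0.543 (0.474 to 0.620), and the direct ratio was 1.0 (0.859 to 1.16). The knockdown libraries could not be told apart for this gene. Relative to FRMD6, PTPN14 stood at 0.694 of its control proportion with YAP siRNA (0.586 to 0.823) and 0.578 with IRF3 siRNA (0.486 to 0.686).

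**Figure D2:**
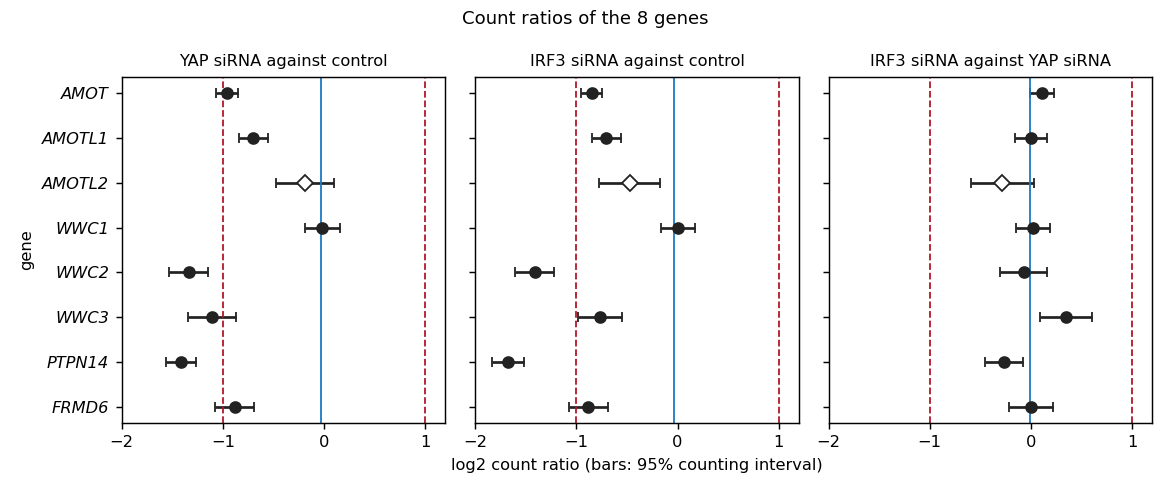
Log2 count ratio of each gene (filled circles, and an open diamond for AMOTL2, which is below the level filter) with its 95% counting interval in the 3 comparisons. Dashed lines mark 2-fold and the blue line the median of all measured genes. PTPN14, WWC2 and WWC3 lie past the lower line with YAP siRNA and PTPN14 and WWC2 with IRF3 siRNA, while all 8 lie between the lines in the direct comparison.

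Set directly against each other, the knockdown libraries gave no call among the 7 measured regulators, beside 0.856% of all genes lower and 0.901% higher. The median log2 ratio of IRF3 siRNA to YAP siRNA was -0.0002, beside -0.009 over all genes. Of the 8 counting intervals, those of WWC3 and PTPN14 excluded a ratio of 1. YAP1 itself stood 1.60 times higher with IRF3 siRNA than with YAP siRNA (1.40 to 1.84).

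Genes with a long authors' length had lower ratios to control in both knockdown libraries, and most of these regulators are long on that scale. Measured genes were split by authors' length into 10 groups of near equal number. In the 1111 longest, of 14821 bases or more, the median log2 ratio was -0.20 with YAP siRNA and -0.23 with IRF3 siRNA, and 5.58% and 7.38% of genes were called lower. PTPN14, WWC1, WWC2, AMOTL1 and FRMD6 belong to that group. Their merged exon lengths are 18756, 10076, 9966, 10035 and 9416 bases, and that length was not used for the grouping. PTPN14 was lower than all but 1.53% of that group with YAP siRNA and all but 0.630% with IRF3 siRNA, and for WWC2 these shares were 1.98% and 1.62%. FRMD6 stood at 8.37% and 9.54% from the lowest in that group and AMOTL1 at 15.5% and 17.1%. Both lay inside the 5th to 95th percentile of the group. WWC1, of the same group, stood above 68.8% and 69.8% of it. WWC3 is shorter, 7640 bases, and was lower than all but 1.17% of genes in its own length group with YAP siRNA and all but 5.50% with IRF3 siRNA. AMOT, at 10767 bases, had 3.15% and 4.86% of its length group below it.

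**Figure D3:**
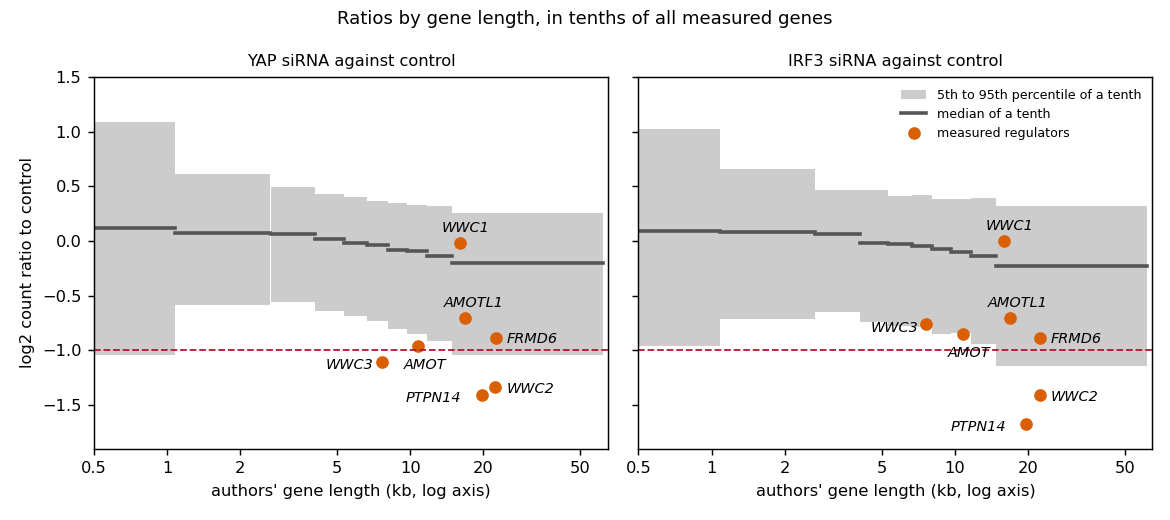
Log2 count ratio to control against the authors' gene length (kb, log axis). Grey bars run from the 5th to the 95th percentile and dark lines mark the median of each of 10 length groups of the 11103 measured genes, orange points are the 7 measured regulators and the dashed line is 2-fold lower. PTPN14 and WWC2 lie below the bar of the longest group in both panels, and WWC1 lies above its median.

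Removing a smooth trend in level, length and GC content left log2 ratios of -1.03 for PTPN14 and -1.02 for WWC3 with YAP siRNA, and of -1.24 for PTPN14 with IRF3 siRNA. WWC2 had -0.85 and -0.86 after this step and no longer passed 2-fold in either library. FRMD6 had -0.39 and -0.34, beside -0.88 before it in both. On the scale of FPKM plus 1, which shrinks low genes, only PTPN14 passed 2-fold (-1.06 and -1.22), beside 0.468% of genes lower with YAP siRNA and 0.612% with IRF3 siRNA. The part of length, GC content or RNA quality in these ratios was not tested.

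**Figure D4:**
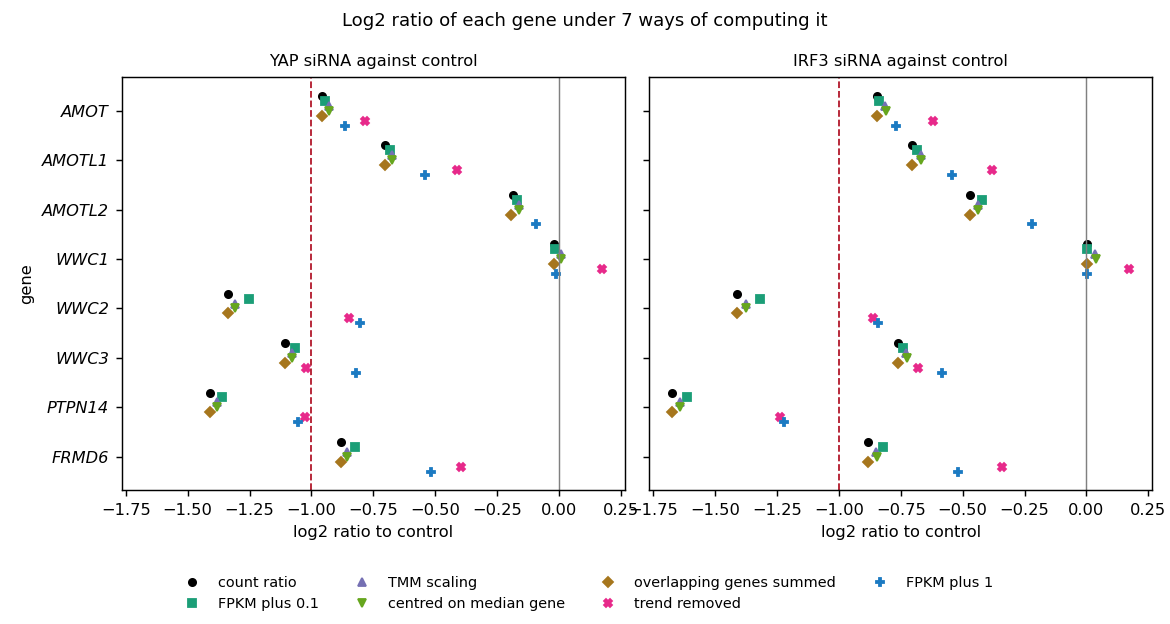
Log2 ratio to control of each gene under 7 ways of computing it, for YAP siRNA and IRF3 siRNA, with a dashed line at 2-fold lower. PTPN14 lies at or past the line in each form shown, WWC2 crosses it with the trend removed and with FPKM plus 1, and WWC1 stays between -0.02 and 0.17.

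Promoters were read because PTPN14 and WWC2 had the lowest ratios and WWC1, in the same family as WWC2, was level. All 8 genes matched RefSeq promoters of build GRCh38.p14, with 9 starts in all. For AMOTL1 and PTPN14 the 250 bases before the start lie inside the gene spans given above, so bases before those spans were not read. The letters GGAATG, the core bound by TEAD factors, were searched on both strands of the 250 bases before each start. On the opposite strand they read as CATTCC. They occurred at 3 of the 9 starts, those of PTPN14 and WWC2 and 1 of 2 for AMOTL2, and in 11.9% of all 35116 promoters of the same length. WWC2 held 2 copies, 222 and 208 bases before the start, as did 0.94% of all promoters with 2 or more. PTPN14 held 1 at 200 bases and AMOTL2 held 1 at 69 bases. The AMOTL2 window with the match also lies inside the gene span given above, and 147 of its 250 bases are in AMOTL2 exons. GAAANNGAAA (TTTCNNTTTC on the opposite strand), a core of IRF binding elements, was not in any of the 9 windows and occurred in 3.02% of all promoters. The following 250 bases are written 5′ to 3′ on the gene's strand, with GGAATG or CATTCC in capitals.
PTPN14, chr1:214551603-214551852, minus strand: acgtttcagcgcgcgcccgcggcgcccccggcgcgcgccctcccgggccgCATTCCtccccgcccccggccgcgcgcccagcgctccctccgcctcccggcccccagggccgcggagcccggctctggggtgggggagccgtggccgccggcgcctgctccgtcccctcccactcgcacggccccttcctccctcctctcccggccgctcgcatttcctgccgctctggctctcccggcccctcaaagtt
WWC2, chr4:183099007-183099256, plus strand: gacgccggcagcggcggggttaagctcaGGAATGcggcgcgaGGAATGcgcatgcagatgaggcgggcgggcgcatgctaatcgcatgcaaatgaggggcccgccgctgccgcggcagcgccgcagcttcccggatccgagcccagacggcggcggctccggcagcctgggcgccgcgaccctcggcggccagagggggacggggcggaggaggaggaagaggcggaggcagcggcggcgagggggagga
WWC3, chrX:10015004-10015253, plus strand: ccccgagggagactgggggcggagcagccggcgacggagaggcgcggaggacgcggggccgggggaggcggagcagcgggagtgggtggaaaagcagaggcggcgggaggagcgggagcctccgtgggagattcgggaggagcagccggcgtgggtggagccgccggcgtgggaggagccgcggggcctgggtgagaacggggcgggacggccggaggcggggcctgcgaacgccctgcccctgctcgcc
WWC1, chr5:168291395-168291644, plus strand: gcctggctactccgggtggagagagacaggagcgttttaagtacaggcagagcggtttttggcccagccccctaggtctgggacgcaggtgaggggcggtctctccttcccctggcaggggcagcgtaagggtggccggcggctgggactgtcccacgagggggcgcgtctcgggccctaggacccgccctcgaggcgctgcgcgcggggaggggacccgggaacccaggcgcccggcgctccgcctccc

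The PTPN14 and WWC2 windows carry the capitals and the WWC3 and WWC1 windows do not, although WWC3 passed 2-fold with YAP siRNA and WWC1 did not. AMOT, AMOTL1 and FRMD6 had no match either. AMOTL2, with a match 69 bases before 1 of its 2 starts, had a ratio of 0.878 with YAP siRNA (0.718 to 1.07), which includes no change. With IRF3 siRNA its ratio was 0.721 (0.584 to 0.889). A match in these letters is a description of the window and not a measured binding site.

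The partners of these regulators were read from lists of pathway genes. By the same rule 2.75% of all measured genes were called lower with YAP siRNA and 3.08% with IRF3 siRNA. Of 13 Hippo kinases and adaptors 8 were measured, and STK4, which encodes the upstream kinase MST1, was the one called lower, with ratios of 0.410 with YAP siRNA (0.347 to 0.482) and 0.447 with IRF3 siRNA (0.381 to 0.523). After removal of the same trend as for the regulators, STK4 had log2 ratios of -0.88 and -0.69, short of 2-fold. NF2, the FERM-domain tumour suppressor merlin, stood at 0.721 and 0.833, and SAV1, the adaptor of the MST kinases, at 0.755 and 0.724. The median log2 ratios of the list were -0.29 and -0.36. Among YAP, TAZ and TEAD factors 6 of 7 were measured, and YAP1 was the one called lower, with YAP siRNA. WWTR1, which encodes TAZ, had ratios of 0.862 and 0.834, and VGLL4, a competitor of YAP for TEAD, had 0.889 and 0.726.

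Of 24 listed names of polarity and junction partners, 22 were found and 13 were measured. None passed 2-fold with YAP siRNA, beside 2.75% of all measured genes called lower, and 2 were called lower with IRF3 siRNA, beside 3.08%. These were TJP1, the tight junction scaffold ZO-1, with 0.435 (0.510 with YAP siRNA), and MAGI3, a junctional PDZ scaffold, with 0.443 (0.568 with YAP siRNA). After trend removal their log2 ratios with IRF3 siRNA were -0.71 and -0.75, and neither passed. MPP5, the Crumbs partner PALS1, stood at 0.618 with IRF3 siRNA and 0.553 with YAP siRNA. Of 7 enzymes that control angiomotin stability 4 were measured, and TNKS2, a tankyrase that marks angiomotins for degradation, was called lower in both, at 0.482 with YAP siRNA and 0.418 with IRF3 siRNA, but not after trend removal (log2 ratios of -0.84 and -0.97). Its relative TNKS stood at 0.526 and 0.537 and the ubiquitin ligase ITCH at 0.670 and 0.650. Among relatives of PTPN14 and FRMD6, 5 of 10 were measured. PTPN13, another FERM-domain phosphatase, was called lower at 0.458 and 0.401, and after trend removal had log2 ratios of -0.78 and -0.91, short of 2-fold. PTPN21, the closest relative of PTPN14, had 0.626 and 0.511 and PTPN3 had 0.637 and 0.570. On the scale of FPKM plus 1 STK4, TJP1, MAGI3, TNKS2 and PTPN13 also fell short of 2-fold, with log2 ratios from -0.64 for MAGI3 with IRF3 siRNA to -0.99 for TNKS2 with IRF3 siRNA where they had been called. YAP1 kept its call with YAP siRNA under both alternatives, at -1.14 and -1.09.

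Other genes with a similar pair of ratios were found by distance, taken as the Euclidean distance between log2 ratios to control over the 2 knockdown libraries, among 4722 protein-coding genes with a mean of at least 5 FPKM. Of the regulators AMOT alone reached that level. At that level 38 of all genes were called lower with YAP siRNA and 48 with IRF3 siRNA, so few candidates had ratios as low as those of PTPN14, WWC2 or WWC3. Nearest to PTPN14 were AHNAK, a giant scaffold protein, at a distance of 0.20, and FAT1, an atypical cadherin, at 0.32, and no candidate lay within 0.1. FAT1 was also nearest to WWC2, at 0.096, followed by PRKDC at 0.18. GNG12 (0.14) and ZFP36L1 (0.15) were nearest to WWC3, which likewise had no candidate within 0.1. SERTAD2 and SDC3 (both 0.04) were nearest to AMOT, ZBED4 (0.01) and ZHX1 (0.03) to AMOTL1, and LRPPRC and TMEM2 (both 0.02) to FRMD6. WWC1, whose ratios were near 1, had 535 genes within 0.1, with UBE2E2 and WDR45B nearest. The distance uses 2 values per gene that share the control library, so it describes these libraries only.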

How the data were processed

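The authors deposited raw counts and FPKM values per gene for 3 libraries, and alignment used TopHat2 version 2.0.9 on hg38, per the submitters' processing notes. The sources used here do not name the gene counter, annotation release or strand setting. With gene length taken from each gene's library of highest count, 100% of 45223 other nonzero FPKM values were within 1% of the count scaled by length and column total. All value columns belong to these samples.

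Counts were scaled by column totals, and ratios carry a 95% Clopper-Pearson interval of the split of a gene's counts between both libraries. Intervals cover counting error only and leave out variation between cultures and transfections. Reads copied by PCR are not separate molecules, so the intervals may be too narrow even for counting error. Proportions of one gene to another carry exact conditional intervals. Called means at least 2-fold among genes with a mean of at least 1 FPKM. The count ratio was taken as the main value because a pseudocount of 1 shrinks genes at the level of most members.

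The named genes were all 8 members, YAP1 and IRF3, the 3 largest absolute log2 ratios in each list, genes whose exons overlap a member, and the 2 nearest genes by distance. Some markers were named outside this rule, after their values were seen. Members and lists were chosen with earlier results of these data known. Markers were read as a check of the cell line. Exon overlap, merged exon length and GC content (of the longest transcript) came from GENCODE release 29, in which 93.8% of the measured genes had identical coordinates. The trend used splines in level, authors' length and GC content, with 4 degrees of freedom each.

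On simulated Poisson counts for 11103 genes, in YAP siRNA against control, all 50 genes raised 3-fold and all 50 lowered to 0.333 were called, as were 36 unchanged genes higher and 31 lower out of 10903. The simulation held no variation between cultures and no trend with length or GC content. It checks the computation and gives no error rate for the calls made here. TMM factors came from edgeR 4.0.16 under R 4.3.3 and splines from patsy 1.0.2, and the rest was done in Python 3.11.15 with scipy 1.17.1, numpy 2.4.6 and pandas 2.3.3.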

Additional observations from a re-analysis of the deposited data

How the results depend on the processing

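Of the 7 measured regulators 3 passed 2-fold with YAP siRNA and 2 with IRF3 siRNA, all lower. On the scale of FPKM plus 1 the counts were 1 and 1, with median log2 ratios of -0.80 and -0.58. A filter of 5 FPKM kept AMOT alone and gave 0 and 0. A 1.5-fold threshold gave 6 and 6, beside 1172 and 1409 of all 11103 measured genes lower. A 3-fold threshold gave 0 and 1 (PTPN14), beside 47 and 49 genes lower. After removal of the trend with level, length and GC the counts were 2 and 1, beside 150 and 136 of all genes lower. The medians were then -0.78 and -0.62, and the cause was not tested. FPKM plus 0.1, no filter, TMM scaling, centring on the median gene and summing of overlapping genes left the counts at 3 and 2. The direct comparison gave 0 in each of these settings. Of the single regulators' log2 ratios to control, 9 of 16 moved outside the counting interval with FPKM plus 1 and 11 of 14 with the trend removed. None did with FPKM plus 0.1, TMM scaling, centring or summing, and no called value changed sign. WWC1, not called, was below 0 with YAP siRNA and above 0 with TMM scaling, centring and trend removal.

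Over all genes 305 were called lower and 117 higher with YAP siRNA and 342 and 111 with IRF3 siRNA. These counts were 52 and 39 and 68 and 43 with FPKM plus 1, 38 and 22 and 48 and 22 with the 5 FPKM filter, and 5607 and 3206 and 5706 and 3184 with no filter. They were 1172 and 348 and 1409 and 352 at 1.5-fold, 47 and 32 and 49 and 39 at 3-fold, and 150 and 125 and 136 and 113 after trend removal. With FPKM plus 0.1 they were 240 and 106 and 284 and 96. TMM scaling gave 276 and 123 and 296 and 116. Centring gave 276 and 123 and 293 and 116. In the direct comparison 95 lower and 100 higher became 35 and 33 with FPKM plus 1, 19 and 16 with the 5 FPKM filter, 4063 and 3480 with no filter, 321 and 273 at 1.5-fold, 28 and 31 at 3-fold and 60 and 52 with overlapping genes summed. Summing also moved the counts against control, to 237 lower and 79 higher with YAP siRNA and 269 and 77 with IRF3 siRNA.

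No paired analysis was possible because each group has 1 library. AMOTL2, with at most 211 counts, is limited by depth, and its place below the level filter depends on the authors' length.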
